A study of Mus musculus with 4 samples.

Results

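Cytokine genes other than the Th2 trio were followed through a T cell receptor restimulation in Th2 cells that had developed with or without SH-2251, a small compound. The group comprised 10 genes, Il2, Il21, Il3, Csf2, Il9, Il10, Il24, Ifng, Tnf and Lta, of 18539 genes that the probes of the array could be assigned to. They were chosen by name as cytokines induced in activated T cells, with earlier results of these data known. Their rises on restimulation are therefore a description and no independent result. Each was found through the RefSeq accession of its probes, 13 probes in all. In both cultures 8 of the 10 rose at least 2-fold on restimulation. So did 7.2% of all genes compared in control cells and 7.09% with SH-2251. A rise of Il9 in the SH-2251-treated cells rests on a single spot, and its probe was not well above background in the control cells. The exception was Lta, which did not rise in either culture. With SH-2251, Il2, Il21 and Ifng were lower after restimulation and Il10 and Il21 were lower at rest, whereas Il3, Csf2 and Tnf reached nearly the same signal in both cultures. The rises of Il2 and Il9 in SH-2251-treated cells and the resting difference of Il21 were limits. A model-based background correction moved these limits to 0.00 on the log2 scale, where limits are cut off, so it left no difference to state. All of them use the resting SH-2251 array, where that correction changed with spots of uneven local background.

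An activated CD4 T cell secretes cytokines within hours, because calcium signals bring NFAT proteins into the nucleus while AP-1 and NF-κB factors are activated alongside them. Many of these genes lie beside each other in small clusters, and which of them a cell can open depends on the factors of its lineage, such as GATA3 in Th2 cells and T-bet in Th1 cells. Their mRNAs are mostly short-lived, so that signal measured soon after restimulation follows both synthesis and decay.

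The cells were CD4 T cells from the spleens of female C57BL/6J mice. All 4 groups were first activated for 2 days on plate-bound antibody to TCR-β (3 µg/ml) with an antibody to CD28 (1 µg/ml), together with 2.5 ng/ml IL-2 and 10 ng/ml IL-4, and were then kept for 3 more days in the same cytokines alone. The SH-2251 groups had the compound in both phases, at 1 µM and then 1 mM by the labels, whereas the study's methods give a lower concentration and add an antibody to IFN-γ. One control and one SH-2251 culture were left resting, and the others were restimulated for 4 h on plate-bound antibody to TCR-β. RNA of each of the 4 conditions was hybridised to 1 single-dye Agilent array, so no comparison has a replicate, no test was made and no p-value is given. IL-2 was added to every culture, and the number of animals behind each sample is not given in the sources used here.

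Levels are given as the log2 intensity of a probe minus the 75th percentile of its array, so that 0 is a bright but not extreme probe, and levels of different probes were not compared with each other. The intensity at that percentile lay between 499.5 and 614.5 on the 4 arrays, and between 56.0% and 56.7% of probes were well above background. A probe below that flag has only an upper limit, and a difference against it is written as "at least". Beside each difference stands a technical SD from the scanner software, which covers error within the arrays and not between cultures. Of the genes, 6 had a probe spotted 10 times on each array. The spread of such spots shows variation within 1 array, with a median SD between 0.046 and 0.055 on the 4 arrays. Spots are not replicates of a condition, so spots that do not overlap say nothing of error between arrays or cultures. The share of all repeated probes whose spots do not overlap was not counted, so separate spots are not read as particular to these genes. The 6 T cell and the 6 Th2 markers were well above background on all 4 arrays. With SH-2251, 3 of the 6 Th2 markers were at least 2-fold lower at rest (Il5, Il13 and Il1rl1). After restimulation 2 were (Il5 and Il1rl1). Of all genes 2.9% and 2.78% were lower. None of the Th2 markers was at least 2-fold higher, against 2.22% and 2.65%. Il1rl1 differed by -4.61 at rest and -3.78 after restimulation. Among markers of other cells, Cd8a was low throughout but higher with SH-2251 (-2.07 against -3.53 at rest, -1.85 against -2.82 after restimulation), and of 4 NK cell markers 2 were above background, with summed signals between 0.460 and 0.767 in units of the 75th percentile, while Klrb1c and Ncr1 stood above background on none of the arrays. In RNA from whole cultures, fewer cells that make a cytokine cannot be told apart from less RNA per cell.

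**Figure D1:**
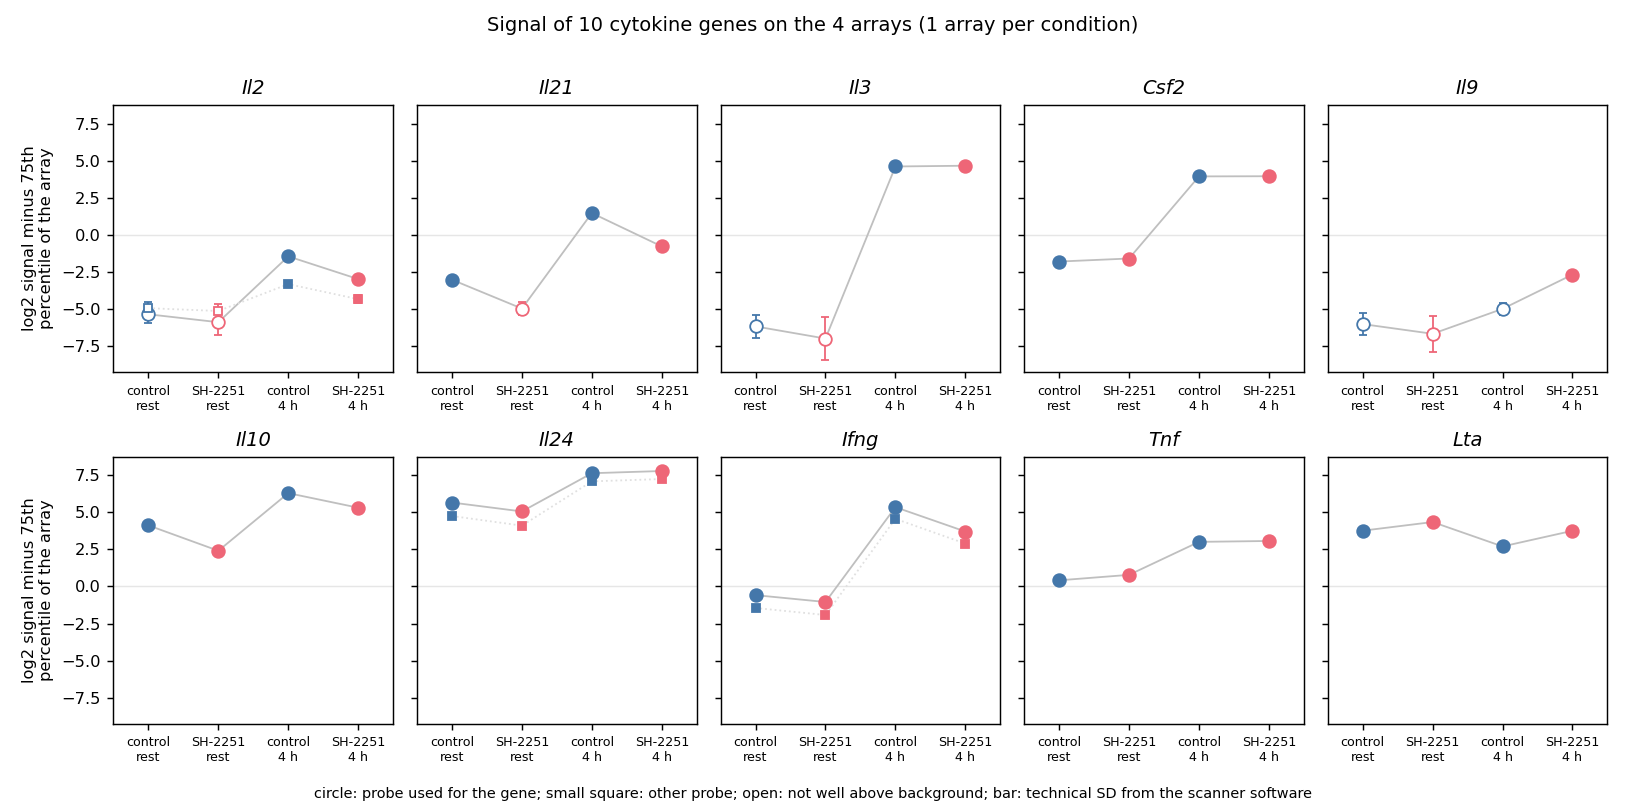
Each panel plots 1 gene on the 4 arrays, as the log2 signal minus the 75th percentile of the array, with circles for the probe used and small squares for a second probe. Open symbols were not well above background, and bars are the technical SD of the scanner software. Il3 goes from below background to 4.61 and 4.66, while Lta is lower after restimulation than before it in both cultures.

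On restimulation of the control cells, 8 of the 10 genes rose at least 2-fold, against 7.2% of the 12757 genes compared, and 1 fell at least 2-fold, against 7.34%. Il9 could not be compared. In the SH-2251-treated cells 9 rose at least 2-fold, against 7.09% of 12613 genes, and none fell, against 6.98%. With SH-2251 at rest, 2 of the 7 genes that could be compared were at least 2-fold lower, against 2.9% of 12683 genes, and none was higher, against 2.22%. After restimulation 3 of 10 were at least 2-fold lower, against 2.78% of 12622 genes, and 2 were higher, against 2.65%. Il2, Il3 and Il9 were not well above background on either resting array, and Il9 not on the restimulated control array either. The median difference over all genes lay between -0.06 and -0.05 in the 4 comparisons.

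**Figure D2:**
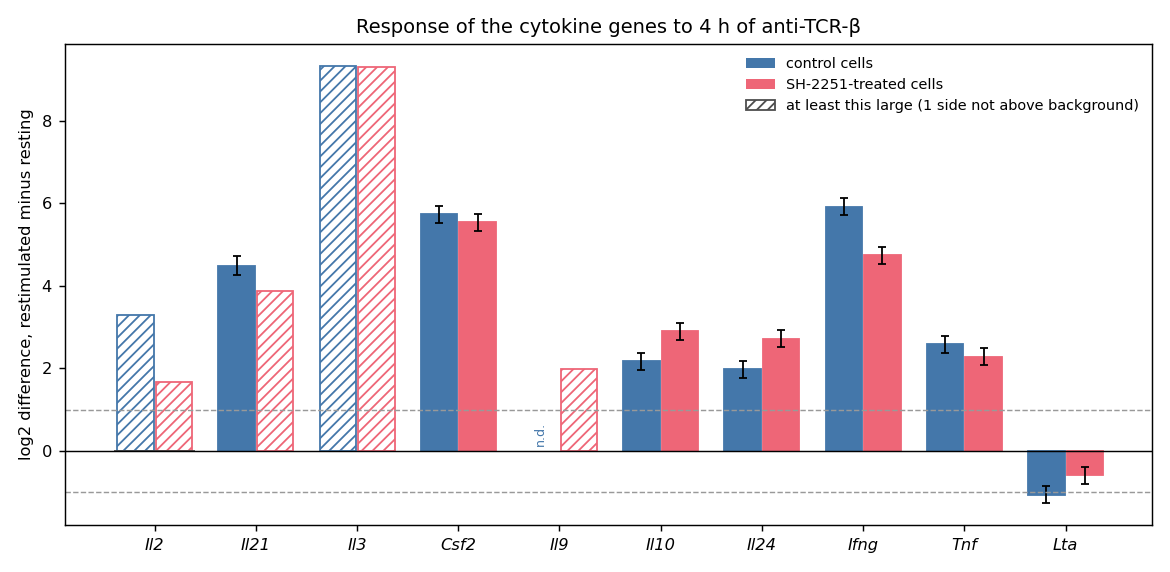
Bars give the log2 difference between restimulated and resting cells for each gene in control and SH-2251-treated cultures, with the technical SD, and hatched bars are lower limits. The dashed lines mark 2-fold. All bars but those of Lta point upwards, and "n.d." marks Il9 in control cells, which was not well above background on either array.

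The T cell growth factors Il2 and Il21 both rose on restimulation and both stood lower with SH-2251. IL-2 drives the expansion of T cells, and IL-21 acts on B cells and on follicular helper T cells. They are next to each other on chromosome 3, and their promoters are shown because the neighbours shared this order of signals on the restimulated arrays. The 250 bases before each RefSeq start (GRCm38.p6, minus strand, chr3:37125955-37126204 for Il2 and chr3:37232637-37232886 for Il21) were, with matches to the motifs listed further on in capitals:
Il2: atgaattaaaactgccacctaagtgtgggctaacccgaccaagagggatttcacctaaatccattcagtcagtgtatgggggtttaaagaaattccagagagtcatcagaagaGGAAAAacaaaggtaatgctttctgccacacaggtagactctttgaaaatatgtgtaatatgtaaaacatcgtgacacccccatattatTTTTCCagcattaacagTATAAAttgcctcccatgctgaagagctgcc
Il21: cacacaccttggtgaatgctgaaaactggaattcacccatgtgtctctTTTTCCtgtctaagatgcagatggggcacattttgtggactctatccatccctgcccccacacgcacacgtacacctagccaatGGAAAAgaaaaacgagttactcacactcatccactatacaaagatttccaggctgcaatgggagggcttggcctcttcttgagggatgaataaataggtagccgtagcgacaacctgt
Each holds the NFAT letters GGAAAA, read on both strands, in 2 places, and Il2 has the TATA letters TATAAA from position -31, counted back from its start.

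For Il2 the log2 signal was -5.34 in resting control cells and -5.87 in resting SH-2251-treated cells, both not well above background. It was -1.44 in restimulated control cells and -2.97 in restimulated SH-2251-treated cells. Il2 was therefore measured after restimulation alone, and there more strongly in control cells. The rise was at least 9.74-fold in control cells (3.28 on the log2 scale), where the second Il2 probe and a model-based background correction (normexp) gave limits of 1.41 and 1.73. In SH-2251-treated cells it was at least 3.21-fold, but the same alternatives gave limits of 0.33 and 0.00, under 2-fold. The latter is the value at which limits are cut off. SH-2251-treated cells were lower than control cells after restimulation by a log2 difference of -1.53 (technical SD 0.227), which left 34.6% of the control signal. The spots of the restimulated arrays did not overlap: those of the control lay between -1.51 and -1.38 and those with SH-2251 between -3.38 and -2.81. The second probe gave -1.01 (technical SD 0.341), on the same side but closer to 2-fold.

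For Il21 the log2 signal was -3.01 in resting control cells, -4.96 in resting SH-2251-treated cells (not well above background), 1.47 in restimulated control cells and -0.77 in restimulated SH-2251-treated cells. Control cells were higher in both states, and either restimulated array was above either resting one. Restimulation raised Il21 by 22.5-fold in control cells and at least 14.7-fold in SH-2251-treated cells (log2 differences of 4.49 and at least 3.88), and normexp gave log2 values of 3.43 and at least 1.01 (3.43 and at least 2.22 when refitted without spots of uneven local background). At rest SH-2251-treated cells were lower by at least 3.11-fold, a limit that normexp moved to the cut-off of 0.00 on the log2 scale. After restimulation the difference was -2.25 (technical SD 0.205), a 4.74-fold lower signal, and it lay between -2.25 and -1.91 under the alternatives. This was the largest decrease with SH-2251 among the 10 genes on the restimulated arrays, and it rests on 1 probe with 1 spot on each array. The next genes beyond Il21, Cetn4 and Bbs12, neither of them a cytokine gene, differed by -0.93 and -0.67 with SH-2251 on the same arrays, and 4932438A13Rik on the other side of Il2 by -0.07.

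The haematopoietic cytokines Il3 and Csf2 rose in both cultures and reached nearly the same signal with and without SH-2251. IL-3 and GM-CSF, the product of Csf2, act on myeloid precursors, eosinophils, mast cells and macrophages through receptors that share the beta chain encoded by Csf2rb. The genes are neighbours on chromosome 11, and their promoters are shown because both restimulated signals hardly differed between the cultures. The 250 bases before each RefSeq start (GRCm38.p6, minus strand, chr11:54267280-54267529 for Il3 and chr11:54249900-54250149 for Csf2) were:
Il3: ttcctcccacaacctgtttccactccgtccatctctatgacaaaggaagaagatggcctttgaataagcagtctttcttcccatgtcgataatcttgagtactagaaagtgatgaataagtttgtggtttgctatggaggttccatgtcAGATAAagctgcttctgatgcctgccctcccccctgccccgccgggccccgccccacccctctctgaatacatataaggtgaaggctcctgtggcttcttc
Csf2: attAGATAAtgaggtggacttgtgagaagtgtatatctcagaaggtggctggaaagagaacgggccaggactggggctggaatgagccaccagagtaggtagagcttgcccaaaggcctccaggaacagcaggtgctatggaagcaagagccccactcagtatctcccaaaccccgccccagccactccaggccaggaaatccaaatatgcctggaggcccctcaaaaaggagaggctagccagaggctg
The capitals mark the GATA letters AGATAA, the single kind of motif found in either window, from position -101 in Il3 and from position -247 in Csf2.

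For Il3 the log2 signal was -6.16 in resting control and -6.98 in resting SH-2251-treated cells, both not well above background, and 4.61 in restimulated control and 4.66 in restimulated SH-2251-treated cells. The gene thus went from no measurable signal to a bright one in both cultures. The rise was at least 646-fold in control cells and at least 636-fold with SH-2251, rank 1 among the increases of each comparison with limits taken at their value. Both are limits, so the size of the rise cannot be compared between the cultures, and normexp put them at 7.49 and 6.45 on the log2 scale (7.49 and 7.70 in a refit without spots of uneven local background). Restimulated cells with and without SH-2251 differed by 0.05 (technical SD 0.204), less than the technical SD.

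For Csf2 the log2 signal was -1.79 in resting control, -1.58 in resting SH-2251-treated, 3.94 in restimulated control and 3.96 in restimulated SH-2251-treated cells. Signal was present at rest and high after restimulation, with hardly any gap between the cultures. Restimulation raised Csf2 by 53.2-fold in control cells (log2 difference 5.73, technical SD 0.209) and by 46.5-fold with SH-2251 (5.54, technical SD 0.208). These ranked 12 and 11 among the increases. The differences with SH-2251 were 0.20 (technical SD 0.212) at rest and 0.01 (technical SD 0.204) after restimulation, both within the technical SD, and the spots overlapped in both states (between 3.86 and 3.99 in control and between 3.93 and 4.00 with SH-2251 after restimulation). Of the genes around the pair, Pdlim4, which encodes a PDZ and LIM domain protein, was higher with SH-2251 by 1.64 at rest and 1.68 after restimulation, and P4ha2, between it and Csf2, differed by -0.26 and 0.07.

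Il9 was measured on 1 array. IL-9 is a mast cell growth factor made by Th9 and some Th2 cells. The log2 signal was -6.0 in resting control, -6.65 in resting SH-2251-treated and -4.98 in restimulated control cells, none of them well above background, and -2.67 in restimulated SH-2251-treated cells. The last was at least 3.95-fold above its resting culture and at least 3.96-fold above the restimulated control. These limits rest on a single spot, and normexp moved them to 0.00, the cut-off of limits, and 0.64 on the log2 scale, under 2-fold. Of 4 mast cell and basophil markers 1 or 2 were above background on an array, with summed signals between 0.213 and 0.242 in units of the 75th percentile. Cpa3 was at -2.42 in restimulated control and -2.57 in restimulated SH-2251-treated cells, and Mcpt4 and Mcpt8 stood above background on no array. The genes next to Il9 on chromosome 13, Slc25a48 and Fbxl21, gave no signal above background either.

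Il10 and Il24, members of the IL-10 family, were already well above background at rest and rose in both cultures. IL-10 restrains macrophages and dendritic cells, and IL-24, which is made by Th2 cells, signals to epithelial cells. For Il10 the log2 signal was 4.11 in resting control, 2.40 in resting SH-2251-treated, 6.29 in restimulated control and 5.30 in restimulated SH-2251-treated cells. Control cells were higher in both states, and the spots of the 4 arrays did not overlap, with those at rest between 4.01 and 4.19 in control and between 2.30 and 2.48 with SH-2251. Restimulation raised Il10 by 4.51-fold in control cells and by 7.46-fold with SH-2251. The difference with SH-2251 was -1.71 (technical SD 0.204) at rest, 30.6% of the control signal, and -0.98 (technical SD 0.204) after restimulation, 50.6% of it. The latter lies just under 2-fold, and the authors' own processed values put it at -1.01, just past it. Maf, a transcription factor that acts on Il10, was lower with SH-2251 (-1.17 at rest and -1.22 after restimulation). Its part in the Il10 difference was not tested.

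For Il24 the log2 signal was 5.65 in resting control, 5.05 in resting SH-2251-treated, 7.63 in restimulated control and 7.78 in restimulated SH-2251-treated cells. The culture with SH-2251 was the lower one at rest and not after restimulation. Restimulation raised Il24 by 3.93-fold in control cells and by 6.61-fold with SH-2251, and the second probe gave 5.04-fold and 8.81-fold. The difference with SH-2251 was -0.60 (technical SD 0.204) at rest and 0.15 (technical SD 0.204) after restimulation, the latter within the technical SD. Il19 and Il20, which lie between Il24 and Il10 on chromosome 1, did not rise 2-fold. Il19 was at -0.31 in resting and -0.91 in restimulated control cells and at -0.50 and -0.27 in the SH-2251-treated ones, 0.64 higher with SH-2251 after restimulation, and Il20 stood above background on no array. Mapkapk2, a kinase gene on the other side of Il10, rose by 1.49 in control cells and by 1.19 with SH-2251.

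Ifng, the signature cytokine gene of Th1 cells, rose steeply in these Th2 cultures and less so with SH-2251. The log2 signal was -0.58 in resting control, -1.04 in resting SH-2251-treated, 5.34 in restimulated control and 3.70 in restimulated SH-2251-treated cells. Control cells were the higher ones in both states, with the wider gap after restimulation. Restimulation raised Ifng by 60.7-fold in control cells (log2 difference 5.92, technical SD 0.205), rank 10 among the increases, and by 26.8-fold in SH-2251-treated cells (4.74, technical SD 0.206), rank 20. The difference with SH-2251 was -0.46 (technical SD 0.206) at rest and -1.64 (technical SD 0.204) after restimulation, where 32.1% of the control signal was left. The second probe, spotted 10 times, gave -0.48 and -1.67, and its spots did not overlap between any of the 4 arrays. After restimulation they lay between 4.51 and 4.62 in control and between 2.83 and 2.95 with SH-2251.

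Beside Ifng, the Th1 markers Tbx21, Cxcr3 and Il12rb2 were well above background on all 4 arrays. Their summed signal, in units of the 75th percentile, was 4.44 in resting control, 2.62 in resting SH-2251-treated, 11.9 in restimulated control and 7.95 in restimulated SH-2251-treated cells, and their part in the Ifng difference was not tested. Tbx21, which encodes T-bet, differed by -0.84 and -0.51 with SH-2251, and Cxcr3 by -0.80 and -1.03, while Il12rb2 differed by 0.46 and 0.67. The part of Cd8a, which was higher with SH-2251, was not tested. Il22, near Ifng on chromosome 10, was not well above background at rest and was 0.95 higher with SH-2251 after restimulation.

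**Figure D3:**
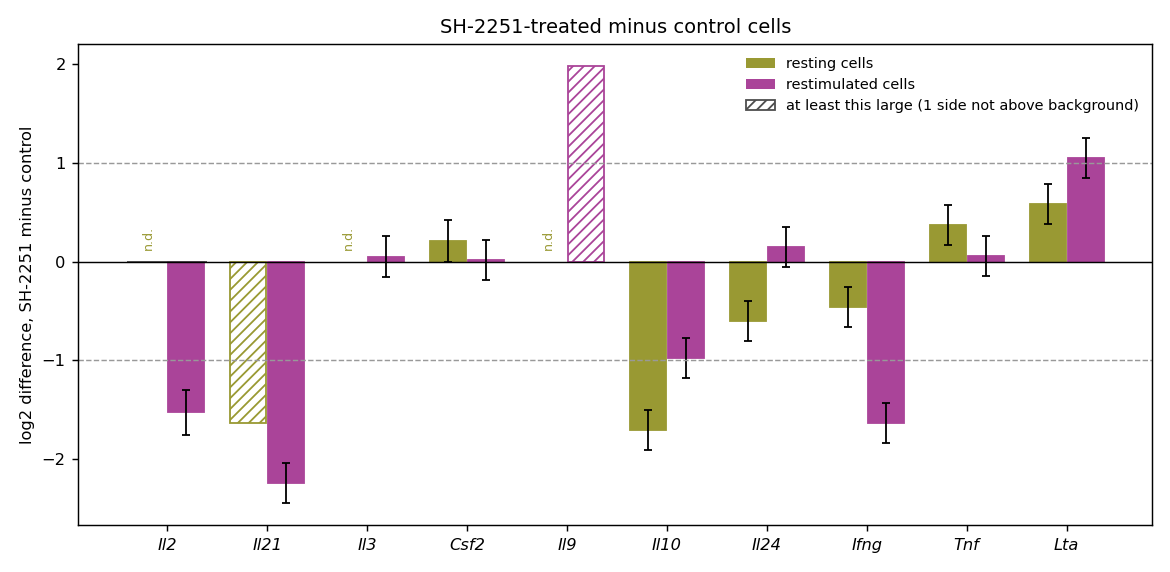
Bars give the log2 difference between SH-2251-treated and control cells at rest and after restimulation, with the technical SD, and hatched bars are limits against an array where the probe was not well above background. The dashed lines mark 2-fold. Il2, Il21 and Ifng lie below the lower line after restimulation, Il9 and Lta above the upper one, and Il3, Csf2, Tnf and Il24 near 0.

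Tnf and Lta, neighbours in the tumour necrosis factor family, moved in opposite directions on restimulation. TNF and lymphotoxin-α bind the same TNF receptors, and lymphotoxin-α also joins the product of Ltb, the gene on the far side of Tnf, on the cell surface. Their promoters on chromosome 17 are shown because genes so close to each other went opposite ways. The 250 bases before each RefSeq start (GRCm38.p6, minus strand, chr17:35202008-35202257 for Tnf and chr17:35205352-35205601 for Lta) were, with motif matches in capitals:
Tnf: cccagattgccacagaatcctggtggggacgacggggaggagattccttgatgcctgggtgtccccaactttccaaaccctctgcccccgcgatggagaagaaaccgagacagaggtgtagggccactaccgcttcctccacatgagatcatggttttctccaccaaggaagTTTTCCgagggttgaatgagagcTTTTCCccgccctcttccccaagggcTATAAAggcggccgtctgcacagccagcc
Lta: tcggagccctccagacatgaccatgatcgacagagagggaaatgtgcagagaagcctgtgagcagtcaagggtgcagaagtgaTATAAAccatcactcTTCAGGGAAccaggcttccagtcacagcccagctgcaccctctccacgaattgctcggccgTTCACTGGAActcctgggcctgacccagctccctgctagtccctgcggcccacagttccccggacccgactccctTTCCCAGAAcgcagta
Tnf holds the NFAT letters in 2 places and TATAAA from position -29. Lta holds no NFAT letters in this window, TATAAA from position -167, and 3 matches to the STAT letters of either spacing. Any part of these letters in the opposite responses was not tested.

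For Tnf the log2 signal was 0.42 in resting control, 0.78 in resting SH-2251-treated, 3.00 in restimulated control and 3.06 in restimulated SH-2251-treated cells. Both restimulated arrays were above both resting ones. Restimulation raised Tnf by 6.02-fold in control cells and by 4.86-fold with SH-2251. With SH-2251 the resting signal was higher by 0.37 (technical SD 0.204), and the spots of the resting arrays did not overlap, at most 0.46 in control and at least 0.73 with SH-2251. After restimulation the difference was 0.06 (technical SD 0.204), and the spots overlapped.

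For Lta the log2 signal was 3.76 in resting control, 4.34 in resting SH-2251-treated, 2.70 in restimulated control and 3.75 in restimulated SH-2251-treated cells. Signal was highest at rest with SH-2251 and lowest in restimulated control cells, and the other two arrays did not differ beyond their spots. Restimulated cells fell below resting ones by 2.09-fold in control (log2 difference -1.06, technical SD 0.204). In SH-2251-treated cells the difference was -0.59 (technical SD 0.204), under 2-fold. SH-2251-treated cells were higher by 0.58 (technical SD 0.204) at rest and by 1.05 (technical SD 0.204) after restimulation. The spots of the restimulated arrays lay between 2.57 and 2.81 in control and between 3.73 and 3.80 with SH-2251. Ltb, on the far side of Tnf, differed by -0.75 on restimulation of control cells and -0.12 with SH-2251. Nfkbil1, next to Lta, differed by -0.65 and -0.63.

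**Figure D4:**
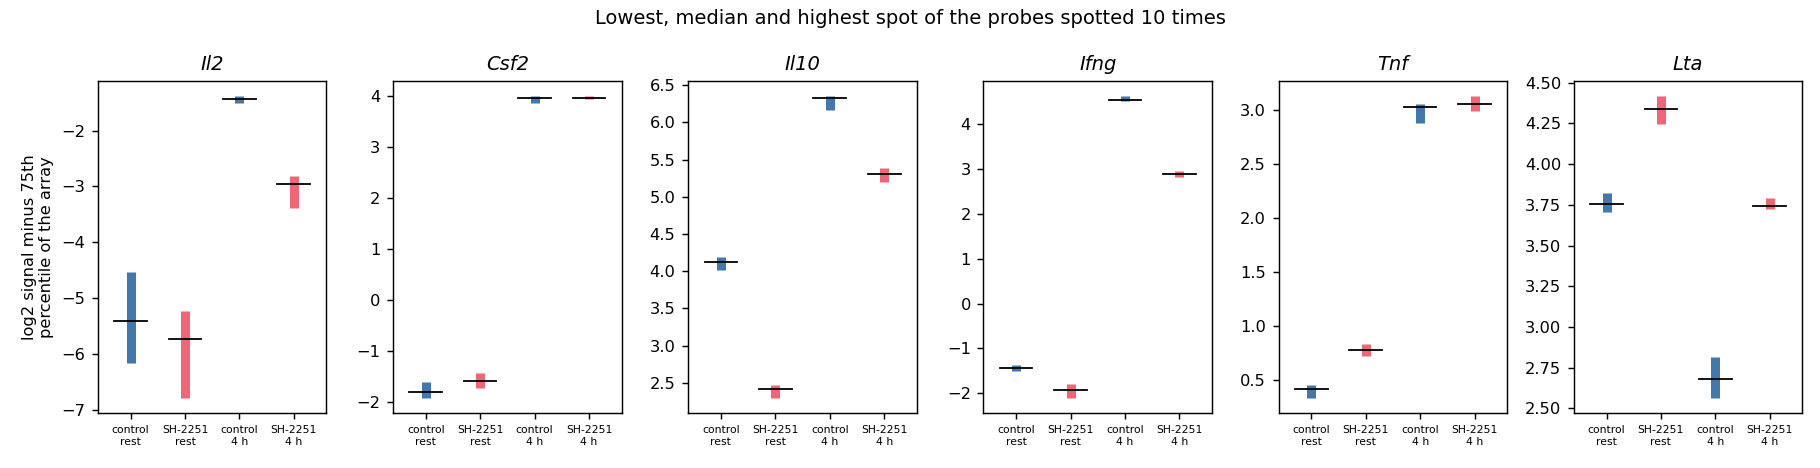
For the 6 genes with a probe spotted 10 times, coloured bars run from the lowest to the highest spot of an array and black lines mark the median, as log2 signal minus the 75th percentile (each panel has its own axis). The spots of all 4 arrays are separate for Il10 and Ifng, those of the restimulated arrays overlap for Csf2 and Tnf, and Il2 at rest is not well above background. How often spots separate over all repeated probes was not counted.

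The size of the restimulation response could be compared between the cultures for the 6 genes that were well above background on all 4 arrays. The response of Ifng was the smaller one with SH-2251, with a difference of -1.18 on the log2 scale (technical SD 0.290). It was the single one of the 6 past 1 log2 unit, a size reached downwards by 0.478% and upwards by 0.738% of the 11518 genes measured on all arrays. The responses of Il24 and Il10 were larger with SH-2251, by 0.75 (technical SD 0.289) and 0.73 (technical SD 0.289), and both started from a lower resting signal. Those of Lta, Csf2 and Tnf differed by 0.47, -0.19 and -0.31, the first beyond the technical SD of 0.289, the second within its technical SD of 0.294 and the third just past its own of 0.289.

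**Figure D5:**
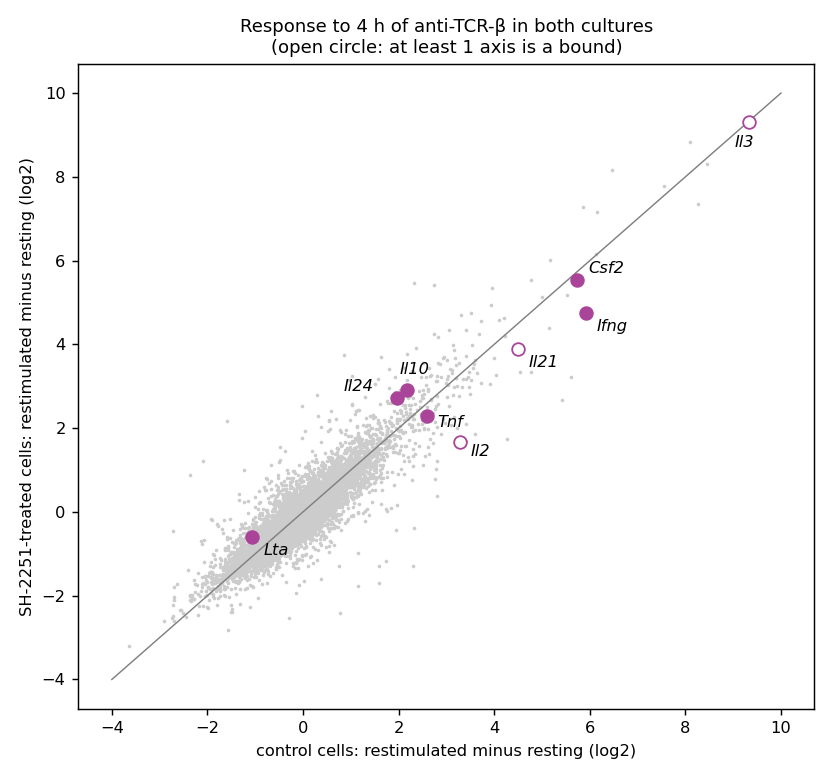
Each point is a gene, with its log2 response to restimulation in control cells on the x axis and in SH-2251-treated cells on the y axis, and the line marks equal responses. Grey points are all genes with both values, and open circles are limits on at least 1 axis. Ifng lies below the line (5.92 and 4.74), Il10 and Il24 above it, and Il3 at the upper end.

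The Th2 trio gives a scale for these values. Il4 differed by -0.10 at rest and -0.23 after restimulation with SH-2251, Il13 by -1.32 and -0.57, and Il5, whose product the compound was made to inhibit, by -3.86 and -3.01. Normexp moved the resting differences of Il13 and Il5 to -0.26 and -2.33, and the refit to -0.90 and -3.0. The Il21 difference of -2.25 after restimulation therefore lay between those of Il13 and Il5.

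The motif search covered the 8 genes with an entry in the RefSeq promoter table of GRCm38.p6. Il10 and Il24 had none. Both strands of the 250 bases were read. NFAT letters (GGAAAA) were in 4 of the 8 windows (Il2, Il21, Il9 and Tnf), and in 20.4% of 32851 promoters. TATAAA was in 4 (Il2, Ifng, Tnf and Lta) and in 12.4% of promoters. The AP-1 letters TGANTCA were in 1 (Il9) and in 6.75%, and the NF-κB letters, GGGA and TTCC with 2 bases between, in none and in 1.21%. Of the STAT spacings, TTCNNNGAA was in 2 (Ifng and Lta) and in 7.02%, and the same letters with 4 bases between in 2 (Il9 and Lta) and in 5.85%. The GATA letters AGATAA were in 2 (Il3 and Csf2) and in 9.99%, TGATAA in none and in 7.94%, and the T-bet letters TCACACC in none and in 3.33%. Of the genes with NFAT letters, Il2 and Il21 were lower with SH-2251 after restimulation. Tnf was not, and neither was Il9, by a limit from a single spot. Of those without them, Ifng was lower and Il3, Csf2 and Lta were not. Any part of these motifs in the responses or in the differences with SH-2251 was not tested.

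Of 19 receptor genes for these cytokines compared in control cells on restimulation, 1 rose at least 2-fold (Il2ra, the α chain of the IL-2 receptor, by 1.06) and 2 fell (Ifngr1, -1.23, and Il20rb, -1.17), 3 in all against 14.5% of all genes, with a list median of -0.11. In SH-2251-treated cells 2 of 18 rose and 2 fell, against 14.1% of all genes in either direction. With SH-2251 none of 18 was higher and 4 were lower at rest, against 2.22% and 2.9% of all genes. These were Il20ra (-2.02), which encodes a receptor chain for IL-24, Csf2rb (-1.27), Csf2rb2 (at most -1.46) and Ifngr1 (-1.14). After restimulation 3 of 19 were lower, against 2.78% of all genes, Il20ra (-1.57), Csf2rb (-1.51) and the IL-10 receptor gene Il10ra (-1.5). The list medians with SH-2251 were -0.22 and -0.10.

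Some of the transcription factors of T cell activation rose on restimulation and others did not. In control cells 11 of 22 rose at least 2-fold and 1 fell (7.2% and 7.34% of all genes compared), with a list median of 1.05, and in SH-2251-treated cells 14 of 22 rose and 1 fell (7.09% and 6.98%), with a median of 1.17. The largest rises in control cells were those of Nr4a1 (6.13), Egr2 (4.21), Egr1 (3.99) and Fosl1 (3.05), and in SH-2251-treated cells these genes rose by 6.17, 4.63, 3.67 and 4.34. Nfatc1 was the one that fell (-1.19 and -1.09). With SH-2251, 3 of 20 were lower at rest (Fosl1 at -1.54, Fos at -1.23 and Egr2 at -1.19) and 1 of 22 after restimulation (Fosb at -1.13), where 2.9% and 2.78% of all genes were. None was at least 2-fold higher in either state, where 2.22% and 2.65% of all genes were. The list medians were -0.15 and 0.05.

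Of 18 lineage factors known to act on these cytokine genes, 4 rose at least 2-fold in control cells, against 7.2% of all genes. These were Bcl6 (2.80), Tbx21 (2.78), Stat5a (2.47) and Bhlhe40 (1.93). A single one fell at least 2-fold, Stat4 by 1.17, against 7.34% of all genes. In SH-2251-treated cells 5 of 19 rose and none fell, against 7.09% and 6.98%. With SH-2251, 2 of 19 were lower at rest (Ahr at -1.26 and Maf at -1.17, against 2.9%) and 1 of 19 after restimulation (Maf at -1.22, against 2.78%). Gata3, the master factor of Th2 cells, differed by -0.17 and -0.03. Of 10 genes that control the decay of cytokine mRNAs, 4 rose at least 2-fold in control cells, again against 7.2% of all genes. These were Zfp36l1 (2.55), Zc3h12a (1.38), Zfp36 (1.22) and Rc3h1 (1.13). The same number rose with SH-2251, against 7.09%. None fell in either, against 7.34% of all genes in control cells and 6.98% with SH-2251. With SH-2251 a single one of them passed 2-fold, Zfp36l2, at -1.01 after restimulation, where 2.78% of all genes were at least 2-fold lower.

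Genes whose profile over the 4 arrays lay closest to that of a member, by the root mean square of the log2 differences after centring, were named without reading shared control into it. Closest to Il2 were Ptpn5 (0.314) and Tnfsf11 (0.317), and closest to Il21 were Zbtb32 (0.495) and Stfa2l1 (0.542). Csf2 lay closest to Nr4a1 (0.277) and Il3 to Rgs16 (1.37). The distances of Il2, Il3 and Il21 use resting signals that were not well above background, so they carry the error of those signals. Il10 was followed by Lilrb4a (0.127) and Gem (0.131), Il24 by Snhg8 (0.0356) and Zc3h12c (0.0525), Tnf by Nab2 (0.0485) and Zfp36l1 (0.0546), and Lta by Septin4 (0.0235) and Iftap (0.04). For Ifng the closest genes were Il13 (0.495) and Egr2 (0.606). With 4 points to a profile, small distances such as these are a description only.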

How the data were processed

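Total RNA from 4 cultures, 1 per condition, was measured on 1 Agilent whole mouse genome slide in 1 scan. The authors deposited scanner files of Feature Extraction 10.7.3.1, whose processed intensity is already corrected for background. They also deposited log2 values, normalised with the Subio Platform per the study's methods, of which at least 99.6% lay within 0.01 of the log2 intensity minus a constant per array. Control and outlier spots (77 to 106 an array) were left out, spots of a probe were averaged on the log2 scale, and the 75th percentile was subtracted. Of 41173 probes, 27198 (66.1%) matched a gene of the RefSeq table (GRCm38.p6) by accession. The array was designed on another build, so the table served for names and neighbours only. A gene was taken from its probe with the highest mean signal. A probe flagged above background on 1 of the compared arrays gave a limit, taken against its own dim signal or the lowest flagged signal of that array, whichever was higher. A limit that would have changed sign was cut off at no difference. Called genes differed at least 2-fold.

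The members, gene lists and motifs were chosen with earlier results of these data known. Named were the members, their neighbours, the closest profiles (at most 2 each), at most 4 genes of a list with the largest difference in a comparison, Maf and Gata3 as factors that act on members or mark the lineage, Il4, Il5 and Il13, and markers. Alternatives were median centring, quantile normalisation, normexp with an offset of 50, the authors' values, the mean of all probes, other filters and limits, outlier spots kept, and thresholds of 1.5 and 3. Scripts were tested on simulated data. Computations ran in Python 3.11.15 (numpy 2.4.6, pandas 2.3.3) and R 4.3.3 (limma 3.58.1).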

Additional observations from a re-analysis of the deposited data

Results flagged for a closer look

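Il24 differed from control in opposite directions in the resting and the restimulated cells. SH-2251-treated cells were lower at rest (-0.60) and higher after restimulation (0.15), so that the response was larger by 0.75 on the log2 scale, and the second probe gave -0.65 and 0.16. The value after restimulation was smaller than its technical SD of 0.204, each side is 1 array, and the difference was not tested. Under the processing of the report no other member, and none of Il4, Il5 and Il13, had opposite signs where both states could be measured. Csf2 had them under the authors' processed values (0.22 at rest and -0.01 after restimulation) and Il4 under quantile normalisation (0.02 and -0.15).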

How the results depend on the processing

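No paired analysis was possible because each group has 1 sample, and the groups share no more than 1 replicate number. With 1 array for each condition, error between cultures is unknown, and signals near background limit what can be said of Il2, Il3, Il9 and resting Il21.

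None of the called differences with both arrays above background changed direction under any alternative. Differences given as limits could not do so where limits were kept, because these were cut off at no difference. Median centring, quantile normalisation, the mean of all probes, a floor at the 1st percentile, outlier spots kept and the authors' values left all counts of members within 1.5 times. Normexp on median signals left 1 gene lower at rest with SH-2251 (Il10), 1 higher after restimulation (Lta) and 1 with a response larger by at least 1 log2 unit (Il24, 1.04). A refit without spots of uneven local background, chosen after seeing the data, gave 1 and 1 for the first and second of these. On the resting SH-2251 array the lowest signal net of background was -4526.5 and 12 such spots were left out. With both arrays required above background, 5 genes rose in SH-2251-treated cells, 1 was lower at rest and 1 higher after restimulation, since limits were dropped. With neither filter nor limit, 1 response was larger (Il9, 2.96). A threshold of 1.5 gave 1 fall in SH-2251-treated cells (Lta) and 2 larger responses (Il10 and Il24). A threshold of 3 gave 0 falls in control cells, 1 gene higher after restimulation with SH-2251 (Il9) and 0 smaller responses. Of 57 differences under normexp, 33 moved by more than the technical SD, and 20 in the refit. Over all genes, normexp gave 629 higher and 443 lower on restimulation of control cells, against 918 and 937 before, and 731 and 1512 in SH-2251-treated cells, against 894 and 881. With SH-2251 it gave 694 and 162 at rest, against 282 and 368, and 149 and 161 after restimulation, against 334 and 351. The refit gave 658 and 443 in SH-2251-treated cells and 122 and 189 at rest. With neither filter nor limit 623 and 798 genes passed at rest and 678 and 949 after restimulation. Responses differed by at least 1 log2 unit upwards in 85 genes and downwards in 55, in 46 and 595 under normexp, 42 and 20 in the refit, and 765 and 942 with neither filter nor limit. The mean of all probes gave 97 and 93. Thresholds of 1.5 and 3 called 33.6% and 4.49% of genes on restimulation of control cells, against 14.5% at 2.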

Other observations

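Among 29 other cytokine genes of T cells, 24 could be compared in restimulated and resting control cells. Of these 15 rose at least 2-fold and none fell, against 7.2% and 7.34% of all genes, with a list median of 1.89. The largest rises were those of Areg (6.15), which encodes amphiregulin, Il6 (5.85), Il5 (5.16) and Il13 (4.77). In SH-2251-treated cells 16 of 23 rose and Osm fell by 1.27, against 7.09% and 6.98%, with a median of 2.40. After restimulation 2 of 24 were higher with SH-2251 (2.65% of all genes), Il6 by 1.63 and Il1a by 1.46, and 4 were lower (2.78%), Il5 (-3.01), Ifnb1 (at most -1.62), Fasl (-1.20) and Il18 (-1.08). The Th17 cytokine genes Il17a and Il17f were not well above background at rest and were at -1.93 and -1.57 in restimulated control cells, and at -2.12 and -0.73 with SH-2251.

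Markers of other cells were followed as well. Of 5 B cell markers, 4 were well above background on each array, and their summed signal lay between 3.52 and 5.47 in units of the 75th percentile, highest in restimulated SH-2251-treated cells. Of 5 myeloid markers 3 were, with sums between 2.44 and 2.99. Most of that sum came from Adgre1, at 1.30 in resting control cells against -3.84 for Csf1r and -3.66 for Cd14. Lyz2 and Itgam were above background on no array. Of 4 Th17 markers none was at rest, 3 were in restimulated control and 2 in restimulated SH-2251-treated cells. Of 3 red cell markers 2 or 3 were, with sums between 1.39 and 2.47. With SH-2251, Hba-a1 was higher (1.15 at rest and 1.28 after restimulation) and Hbb-bt lower (-1.53 and -1.56). Alas2 was higher by at least 1.57 after restimulation and could not be compared at rest. The regulatory T cell marker Ikzf2 was higher with SH-2251, by 1.26 at rest and at least 1.40 after restimulation, and Foxp3 by 0.10 and at least 0.71. The part of these markers in the cytokine differences was not tested.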
